A study of Arabidopsis thaliana with 6 samples.

Results

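CHH methylation close to the centromeres of Arabidopsis thaliana was lower in the rbp-ko-1 mutant than in the wild-type accession Col-0 at nearly every region that the authors called as different between them. The regions described here are the CHH regions of the authors' deposited table that start within 1 Mb of a centromere, are shorter than 1000 bp and carry no transcription start site (TSS). They number 696 of 9213 differentially methylated regions in all, and of 5834 in the CHH context. Coordinates are those of build TAIR10, counted from 1. Centromeres were placed at 15, 3.6, 14, 4 and 12 Mb on chromosomes 1 to 5. The stretch of chromosome 2 from 3.2 to 3.6 Mb, which holds a copy of the mitochondrial genome, was left out. In all, 1107 CHH regions started inside these windows. The copy accounted for 163 of them, a TSS for a further 186 and a length of 1000 bp or more for another 62.

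The study set 3 whole-genome bisulfite libraries of rbp-ko-1, also labelled KO27, against 3 of Col-0. RBP45D (AT5G19350), an RNA-binding protein gene, is the gene of the series title, which links it to flowering time at raised temperature and to a DCL3-independent form of RNA-directed DNA methylation. Plants of both genotypes were grown on soil in long days (16 h light, 8 h dark) and were 26 days old. The mutant is represented by a single line, and traits of the line and effects of the mutation cannot be told apart. Whether each library is a plant of its own is not in the labels.

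DNA methylation in plants is kept up by different enzymes in different sequence contexts. In CHH, where H stands for A, C or T, the copied strand carries no mirror-image cytosine, so the mark has to be set anew after each round of replication. In the compact heterochromatin around centromeres this is done mainly by the chromomethylase CMT2, with the nucleosome remodeller DDM1 giving access to the DNA. RNA-directed DNA methylation, which uses small RNAs and the methyltransferase DRM2, acts mainly on short transposons on the arms and on the edges of long ones. Transposons, 5S ribosomal RNA gene arrays and few active genes make up the sequence near centromeres.

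The table gives 1 mean methylation level per genotype for each region, as a fraction that is shown here in percent. It lists neither single libraries nor reads per site, which leaves the sequencing depth unknown and every level without an SD or an n. No difference can be set against the spread between libraries, and no test was made. All statements below describe regions that the authors had already called, and regions are not replicates. The number of CHH cytosines in a region is given as a guide to how much sequence a level rests on.

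In this set 691 regions were lower in rbp-ko-1 and 5 were higher. Over the whole CHH context 97.4% were lower, so the direction among these 696 was close to that of the context as a whole. At the median region the level was 2.45% in rbp-ko-1 and 7.39% in Col-0. The quartiles were 1.63 and 3.44% in rbp-ko-1 and 5.42 and 9.54% in Col-0, so the middle ranges of the genotypes did not overlap. The median difference was -4.85 percentage points, with quartiles of -6.04 and -3.77 points. Over all CHH regions of the table the medians were 3.19% in rbp-ko-1 and 8.88% in Col-0, with a median difference of -5.71 points. The quartiles over all CHH regions were 1.70 and 5.73% in rbp-ko-1 and 5.84 and 13.6% in Col-0. The middle ranges did not overlap there either, so this separation is not particular to the set.

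The loss was large as a share of the Col-0 level and small in percentage points. The median ratio of the rbp-ko-1 to the Col-0 level was 0.337, with quartiles of 0.273 and 0.392. In 662 of the 696 regions the rbp-ko-1 level was under 0.5 of the Col-0 level, or 95.1%, beside 84.8% of all CHH regions of the table. A loss of at least 5 points was seen in 333 regions, or 47.8%, beside 60.6% of all CHH regions. Losses of at least 10 points were few, with 20 regions or 2.87%, beside 11.4% of all CHH regions. The smallest absolute difference was 1.74 points and the largest loss 18.2 points.

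Col-0 levels here were low to begin with. They lay between 2.09 and 26.9%, with 544 of 696 regions (78.2%) under 10% and only 7 at 20% or more. Levels in rbp-ko-1 lay between 0.120 and 18.2%, and 630 regions (90.5%) were under 5%. Regions with more methylation in Col-0 also had more in rbp-ko-1. Across the 691 lower regions the correlation of the log2 levels of the genotypes was 0.838, over points that share the same libraries. Across all 5680 lower CHH regions of the table it was 0.920.

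**Figure D1:**
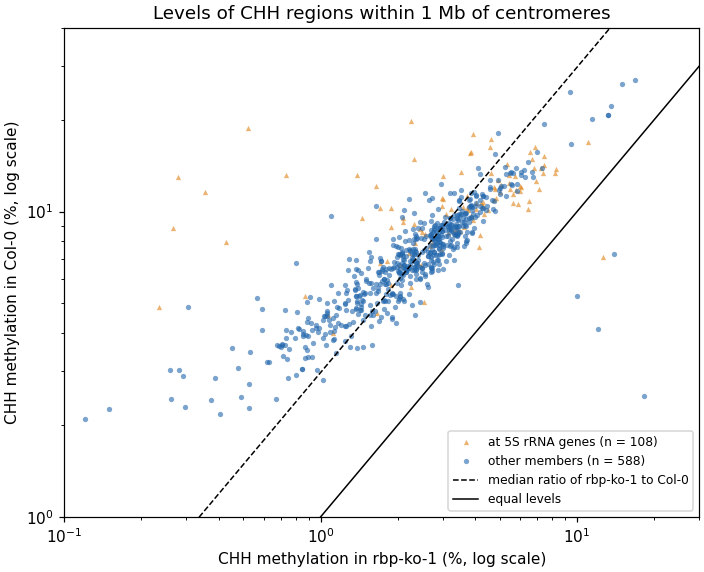
Methylation level of each of the 696 CHH regions in rbp-ko-1 (horizontal axis, log scale) and in Col-0 (vertical axis, log scale), in percent, with 1 point per region and triangles for 5S ribosomal RNA genes. Nearly all points lie above the line of equal levels and spread around the dashed line of the median ratio, 0.337, and 5 lie below the line of equal levels.

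The share of methylation left in rbp-ko-1 was smaller where Col-0 had less. In the 174 regions with the least Col-0 methylation the median levels were 1.12% in rbp-ko-1 and 4.39% in Col-0, with a median ratio of 0.266. In the 174 with the most they were 4.31% in rbp-ko-1 and 11.5% in Col-0, with a median ratio of 0.388. The groups of 174 in between had median ratios of 0.323 and 0.350, in order of rising Col-0 level. The Col-0 level enters both the grouping and the ratio, and the thresholds of the authors' calling are not known, so this gradient only describes the called list.

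Mitochondrial DNA, which in plants is generally regarded as unmethylated, also had lower CHH readings in rbp-ko-1. The 42 lower CHH regions of the mitochondrial genome had medians of 0.574% in rbp-ko-1 and 2.96% in Col-0, a median difference of -2.42 points. In bisulfite sequencing an unmethylated cytosine that escapes conversion is read as methylated, and no conversion rate was at hand. Of the 691 lower regions near centromeres, 25 (3.62%) lost less than 2.42 points. As a share of the Col-0 level the mitochondrial loss was the larger, with a median ratio of 0.205 beside 0.336 in the 691 regions. The 163 CHH regions of the chromosome 2 copy, all lower, had medians of 1.30% in rbp-ko-1 and 5.14% in Col-0, and a median ratio of 0.256. All of these are called regions, so none of the medians is a background rate. The part that conversion has in the differences was not tested.

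Regions lay in all 5 windows, at unequal densities. Chromosome 3 held 199 of them (28.6%), chromosome 2 held 184 (26.4%), chromosome 5 held 129 (18.5%), chromosome 1 held 96 (13.8%) and chromosome 4 held 88 (12.6%). Per 100 kb of window this came to 11.5 regions on chromosome 2, 9.95 on chromosome 3, 6.45 on chromosome 5, 4.8 on chromosome 1 and 4.4 on chromosome 4. They covered 3.48% of the chromosome 2 window and 1.39% of that on chromosome 4. The ratio hardly varied, with medians of 0.329, 0.349, 0.337, 0.333 and 0.333 on chromosomes 1 to 5. Chromosome 2 had the lowest Col-0 levels, with medians of 2.16% in rbp-ko-1 and 6.42% in Col-0. Chromosome 3 had the highest, with 2.83% in rbp-ko-1 and 8.58% in Col-0. Without regions at 5S ribosomal RNA genes the chromosome 3 medians were 2.35% in rbp-ko-1 and 7.33% in Col-0, and chromosome 5 then had the highest, with 2.64% in rbp-ko-1 and 7.55% in Col-0.

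Within the windows, regions thinned out towards the centromere. Counting both sides, there were 7.04 regions per 100 kb from 750 to 1000 kb, 7.4 from 500 to 750 kb, 5.45 from 250 to 500 kb and 4.4 within 250 kb, leaving out regions at 5S genes. With those regions the densities were 7.92, 7.6, 6.72 and 6.67. The next 250 kb outside the window held 10.4 per 100 kb. Every entry of the table is annotated to a gene, and annotated genes are sparse near centromeres, so the densities do not measure how common the loss is in sequence without genes. The median ratio showed no steady trend with distance, at 0.359 within 250 kb, 0.305 from 250 to 500 kb, 0.334 from 500 to 750 kb and 0.345 from 750 to 1000 kb.

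**Figure D2:**
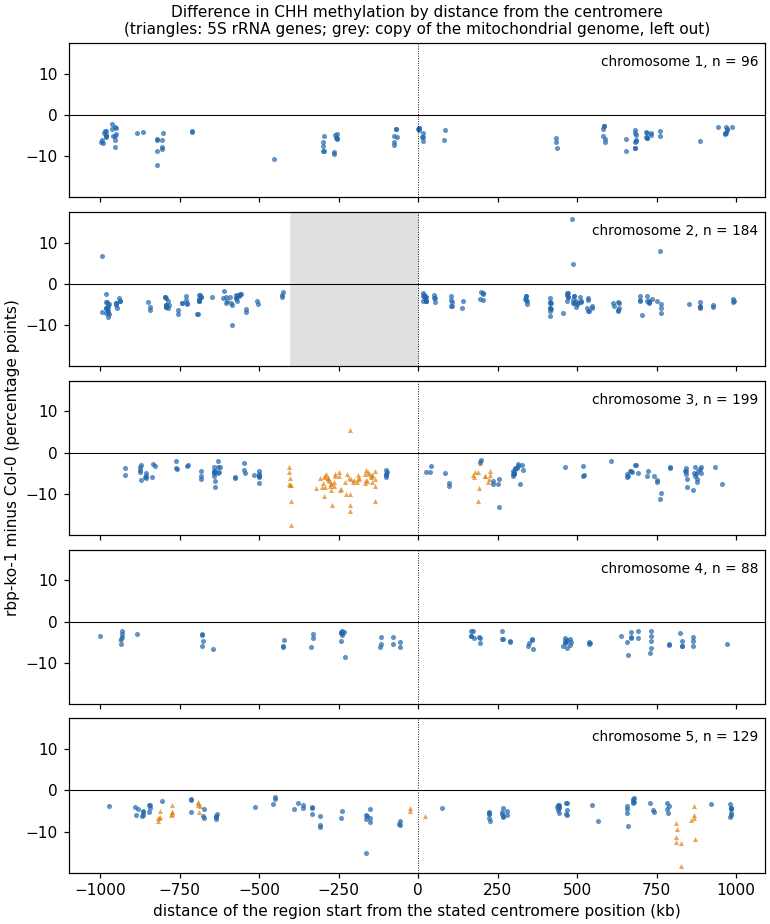
Difference in CHH methylation, rbp-ko-1 minus Col-0 in percentage points, against the distance of each region from the stated centromere position in kb, with 1 panel per chromosome, triangles for 5S ribosomal RNA genes and grey for the stretch left out. Losses between about 2 and 10 points run through all 5 windows. Of the 5 gains, 4 lie on chromosome 2, which holds 26.4% of all regions of the set. On chromosome 3 there are 78 triangles and on chromosome 5 there are 29.

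Regions just inside and just outside the limits of the set were lower in rbp-ko-1 as well. The outermost region inside, at the AT4G05632 promoter (chromosome 4, 3000110 to 3000200), had 1.91% in rbp-ko-1 and 5.41% in Col-0. The nearest outside lay at the same promoter and had 3.26% in rbp-ko-1 and 8.45% in Col-0. At the length limit, the longest region kept, of 999 bp, had 4.74% in rbp-ko-1 and 12.04% in Col-0. The shortest one left out, of 1014 bp at the AT2G07440 promoter, had 2.38% in rbp-ko-1 and 7.07% in Col-0.

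Compared with CHH regions farther out, chosen by the same limits on length and TSS, those near centromeres had lower levels and a narrower spread of ratios. The 1776 regions from 1 to 3 Mb had medians of 2.76% in rbp-ko-1 and 7.93% in Col-0 and a median ratio of 0.347. The 2121 regions beyond 3 Mb had 4.30% in rbp-ko-1 and 10.8% in Col-0 and a median ratio of 0.394. Quartiles of the ratio were 0.273 and 0.392 near centromeres, 0.271 and 0.424 from 1 to 3 Mb, and 0.284 and 0.514 beyond. Higher regions numbered 5 of 696 near centromeres, 34 of 1776 from 1 to 3 Mb and 110 of 2121 beyond. Losses of at least 10 points made up 2.87% near centromeres, 6.02% from 1 to 3 Mb and 19.1% beyond. These classes differ in Col-0 level and in gene content, no test was made between them, and nothing here is claimed as particular to centromeres.

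**Figure D3:**
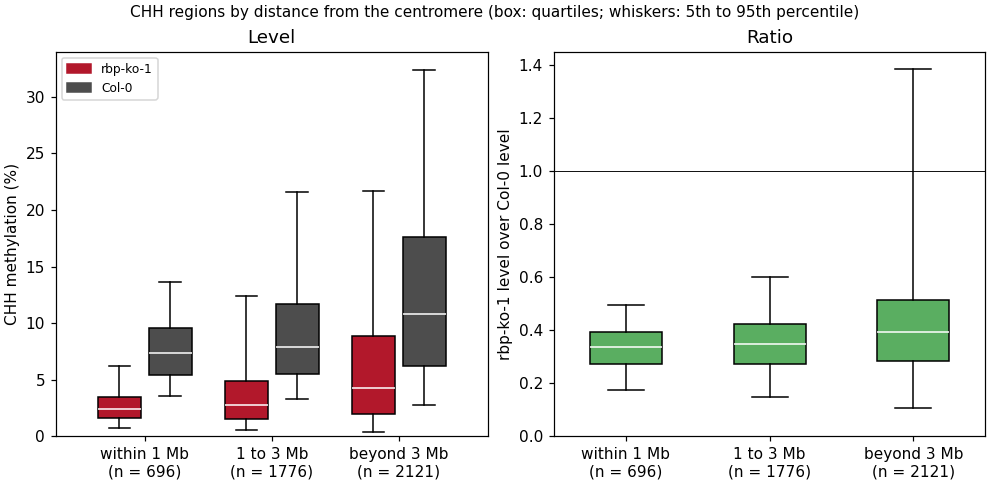
CHH methylation in percent in rbp-ko-1 and Col-0 (left) and the ratio of the rbp-ko-1 to the Col-0 level (right) for CHH regions within 1 Mb of a centromere, from 1 to 3 Mb and beyond 3 Mb, with boxes for quartiles and whiskers for the 5th and 95th percentiles over regions. Median levels in rbp-ko-1 are 2.45, 2.76 and 4.30%, those in Col-0 7.39, 7.93 and 10.8%, and the ratios spread more with distance.

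Regions were short, with a median length of 231 bp, quartiles of 136 and 408 bp, and a median of 68 CHH cytosines. Together they covered 207187 bp and 61168 cytosines. Longer regions varied less in their ratio. The 174 longest had ratio quartiles of 0.283 and 0.373 around a median of 0.334. The 174 shortest had quartiles of 0.25 and 0.417 around a median of 0.338. The 5 regions higher in rbp-ko-1 were between 111 and 228 bp long. The 350 regions longer than 228 bp were all lower, which follows from setting the cut at the longest higher region. With 5 higher regions, direction cannot be related to length.

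**Figure D4:**
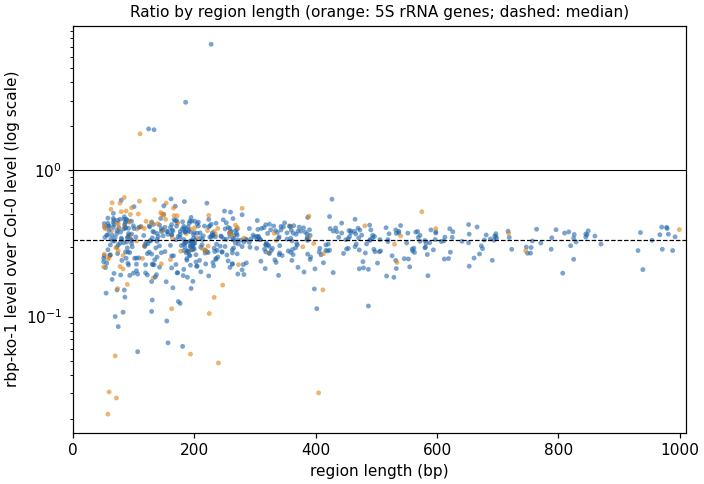
Ratio of the rbp-ko-1 to the Col-0 level of each region (log scale) against its length in bp, with regions at 5S ribosomal RNA genes in orange and the median ratio of 0.337 as a dashed line. Ratios narrow towards the median as regions get longer, and the 5 points above the line at 1 are all 228 bp or shorter.

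Many regions lay close to another region of the set, though the levels in the gaps between them are unknown. Of 691 gaps between neighbours, 350 were 1000 bp or less, and joining regions across such gaps gave 346 runs. Of the runs, 168 held 1 region, and 3 of the longer ones held regions of both directions. Runs of 2 or more regions held 528 of the 696 (75.9%), and 219 regions (31.5%) also lay within 1000 bp of a CHH region that was left out for its length or its TSS. Neighbours within 1000 bp had more alike ratios than neighbours farther apart, with a median absolute difference in ratio of 0.0569 over 350 pairs and 0.0862 over 341 pairs. Among pairs of lower regions the correlation of their log2 ratios was 0.429 within 1000 bp (345 pairs) and 0.0438 farther apart (336 pairs), over points from the same libraries. The log2 Col-0 levels of these pairs were correlated too, at 0.662 within 1000 bp and 0.310 farther apart. Whether the alike ratios only follow from alike Col-0 levels was not tested. Neighbouring regions can be parts of a single longer domain and are not independent of each other.

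The run with the most regions had 9 over 4847 bp, at MED15C (AT2G10440) and AT2G05505 on chromosome 2 (4012898 to 4017744). MED15C is named for a subunit of Mediator, the complex that links transcription factors to RNA polymerase II. Its own 7 regions had between 1.76 and 5.64% in rbp-ko-1 and between 5.10 and 13.3% in Col-0, with ratios from 0.294 to 0.435. The genotypes overlapped in these ranges, but each region was lower in rbp-ko-1.

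The genes with the most regions showed the same picture along their length. AT2G08986, described as an unknown protein, had 9 regions from 15.9 kb beyond the stated centromere of chromosome 2, between 3615859 and 3626537. Their levels were 1.82 to 3.17% in rbp-ko-1 and 4.64 to 7.20% in Col-0, without overlap, and their ratios lay between 0.327 and 0.459. AT1G41920, annotated as a zinc finger protein related to a general transcription factor, had 8 regions over its exons, introns and promoter. They had 2.12 to 5.46% in rbp-ko-1 and 6.39 to 13.4% in Col-0, again without overlap.

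FH17 (AT3G32400), a gene for a formin, a protein that nucleates actin filaments, had 8 regions from its transcription end to its promoter on chromosome 3. They had 2.45 to 3.65% in rbp-ko-1 and 6.01 to 11.8% in Col-0. A CG region overlapping the promoter region (13362317 to 13362389, 8 cytosines) had 61.3% in rbp-ko-1 and 85.6% in Col-0. AT1G39070 had the lowest ratios of the 5 genes, from 0.198 to 0.401 over 7 regions. AT2G06570 had the highest, from 0.373 to 0.527 over 7 regions, with 3.34 to 7.32% in rbp-ko-1 and 8.34 to 14.5% in Col-0, also without overlap. MED15C tied with both at 7 regions, but the ranges of the genotypes overlapped there. Among genes with 6 regions the ranges overlapped at some, such as AT1G37020, with up to 4.29% in rbp-ko-1 and from 3.97% in Col-0. At others, such as AT2G06904, they did not. All regions were called for a difference between the genotypes, and the share of genes without overlap was not counted. Ranges without overlap therefore show nothing particular to these genes. Of 117 gene identifiers with 3 or more regions, other than 5S genes, 115 had all their regions lower. In the whole set 99.3% of regions were lower. Some microRNA genes, such as MIR854c, enter this count under each of their identifiers.

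**Figure D5:**
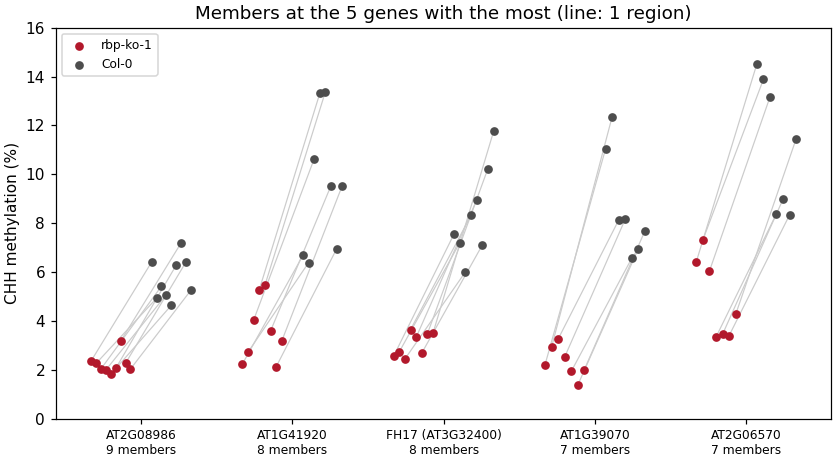
CHH methylation in percent in rbp-ko-1 (red, left of each pair) and Col-0 (grey, right) at every region of the 5 genes with the most regions, in order of position, with a line for each region. All 39 regions are lower in rbp-ko-1, and within each of the 5 genes the ranges of the genotypes do not overlap. The regions were called for a difference between the genotypes, and the share of all genes without overlap was not counted. MED15C, which tied at 7 regions, is not shown. Its ranges overlap, with up to 5.64% in rbp-ko-1 and from 5.10% in Col-0.

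Promoters were the most frequent annotation. A promoter was annotated at 486 regions (69.8%), an exon at 253 (36.4%), an intron at 156 (22.4%) and a transcription end at 84 (12.1%). Untranslated regions were rare, with 11 regions in a 3′ UTR and 4 in a 5′ UTR. How far the authors' promoters reach is not stated. Promoter-only regions, 419 in number, had medians of 2.70% in rbp-ko-1 and 7.80% in Col-0. The 210 regions in gene bodies alone had 2.07% in rbp-ko-1 and 6.54% in Col-0, with median ratios of 0.342 and 0.323 for promoters and gene bodies. The promoter share was 75.8% from 1 to 3 Mb and 84.8% beyond 3 Mb, while introns were annotated at 18.9% and 14.6% there.

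The regions touched 521 annotated genes, of which 254 were 5S ribosomal RNA genes, and 249 of the remaining 267 matched the RefSeq gene table. These comprised 192 protein-coding genes, 37 long non-coding RNA genes, 11 microRNA genes and a few others. The 488 regions at protein-coding genes had medians of 2.27% in rbp-ko-1 and 6.87% in Col-0, and 4 of them were higher. At long non-coding RNA genes the medians over 71 regions were 1.91% in rbp-ko-1 and 6.15% in Col-0, with a ratio of 0.294. Genes whose deposited description carries a transposon term (transposase, retroelement, Gag or Pol polyprotein, Ulp1 protease or DUF1985) numbered 11. Their 41 regions were all lower, beside 99.3% of regions in the whole set, with medians of 1.77% in rbp-ko-1 and 5.76% in Col-0. This list of terms was drawn up after the descriptions were seen.

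5S ribosomal RNA genes, which encode a small RNA of the large ribosomal subunit and lie in long tandem arrays, held 108 of the regions, 78 on chromosome 3, 29 on chromosome 5 and 1 on chromosome 4. They had medians of 3.73% in rbp-ko-1 and 10.6% in Col-0, with 1 of them higher, against 2.31% in rbp-ko-1 and 6.95% in Col-0 at the other 588. Extreme values were common there. Regions at 5S genes, 108 of the 696, made up 14 of the 20 losses of at least 10 points and 7 of the 12 ratios under 0.1. They also made up 17 of the 29 lower regions with a ratio of 0.5 or more. They were shorter than the others, with medians of 157.5 bp and 45 cytosines against 250.5 bp and 74 cytosines. Shorter regions varied more in their ratio, and the part of length in these counts was not tested. Repeated copies share reads that cannot be placed with certainty, so each single 5S value is uncertain.

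The largest losses of all lay at such 5S genes. A 72 bp region with 21 cytosines (chromosome 5, 12827083 to 12827154) had 0.520% in rbp-ko-1 and 18.7% in Col-0. The region next to it (12827218 to 12827275, 22 cytosines) had 0.279% in rbp-ko-1 and 12.96% in Col-0, the smallest ratio of the set at 0.0215. The next largest loss (chromosome 3, 13599445 to 13599607, 30 cytosines) had 2.24% in rbp-ko-1 and 19.8% in Col-0. The 5 smallest ratios, among regions of at least 10 cytosines, were all at 5S genes and lay between 0.0215 and 0.0539.

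Away from the 5S arrays the largest loss was at the promoter of MIR854c (AT5G04985), a microRNA gene (chromosome 5, 11836014 to 11836168, 63 cytosines), with 9.40% in rbp-ko-1 and 24.7% in Col-0. MIR854 genes lie within repeats of Athila retrotransposons. The 5 copies, MIR854a to MIR854e, together had 16 regions, all lower, with medians of 3.58% in rbp-ko-1 and 11.01% in Col-0 and ratios between 0.222 and 0.519. The copies are alike in sequence and can share reads. Over all 11 microRNA genes, 28 regions were lower and none higher, with medians of 3.06% in rbp-ko-1 and 9.53% in Col-0. In the whole set 99.3% of regions were lower, so the direction shows nothing particular to microRNA genes.

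On chromosome 3 the largest loss outside 5S genes was at the promoter of AT3G42060, described as a myosin heavy chain-like protein (14254305 to 14255053), with 4.91% in rbp-ko-1 and 18.1% in Col-0 over 202 cytosines. On chromosome 1 it was at the promoter of HCS2 (AT1G37150), named for holocarboxylase synthetase, the enzyme that attaches biotin to carboxylases. That region (14178319 to 14178855, 145 cytosines) had 7.45% in rbp-ko-1 and 19.4% in Col-0. A further 3 regions of the same promoter had ratios between 0.319 and 0.444. AT1G38790, described as an unknown protein, had 4.78% in rbp-ko-1 and 15.5% in Col-0 at its promoter, the only one of the 4 largest losses on chromosome 1 outside HCS2 and AT1G39070.

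On chromosome 2 the largest loss was at the promoter of AT2G07240, described as a cysteine-type peptidase (3014282 to 3014361, 24 cytosines), with 16.9% in rbp-ko-1 and 26.9% in Col-0, the highest Col-0 level of the set. It was followed by an intron of AT2G06570, with 6.43% in rbp-ko-1 and 14.5% in Col-0, by MED15C, with 5.64% in rbp-ko-1 and 13.3% in Col-0, and by the promoter of AT2G10920, with 6.05% in rbp-ko-1 and 13.5% in Col-0. On chromosome 4 the largest loss was at the promoter of YY1 (AT4G06634), a zinc finger transcription factor gene (3768397 to 3768580, 44 cytosines). It had 13.6% in rbp-ko-1 and 22.2% in Col-0, while a second region of that promoter (3767367 to 3767473) had 0.631% in rbp-ko-1 and 3.23% in Col-0. A region annotated to both AT4G07835 and AT4G05235 had 2.11% in rbp-ko-1 and 10.1% in Col-0. The promoters of AT4G07932, with 3.51% in rbp-ko-1 and 11.2% in Col-0, and AT4G06534, with 4.42% in rbp-ko-1 and 11.2% in Col-0, came next.

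Of the 5 regions with the highest Col-0 level, among those of at least 10 cytosines, 4 kept more than 0.5 of it. DAYSLEEPER (AT3G42170, named HAT in the table), a gene derived from a hAT transposase and needed for plant development, had 13.2% in rbp-ko-1 and 20.7% in Col-0 at its promoter (14318659 to 14319085), a ratio of 0.636. The ratio was 0.612 at the YY1 promoter, 0.626 at AT2G07240 and 0.572 at the CLSY1 promoter, while the MIR854c region had 0.381.

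The longest regions were lower by shares like those of the rest. AT4G07526 had 2.38% in rbp-ko-1 and 6.77% in Col-0 over 992 bp and 300 cytosines. AT2G11010 had 2.35% in rbp-ko-1 and 8.30% in Col-0 over 988 bp, MED15C 3.44% in rbp-ko-1 and 9.39% in Col-0 over 981 bp, and AT2G06845 2.91% in rbp-ko-1 and 7.28% in Col-0 over 979 bp. Their ratios were 0.351, 0.283, 0.366 and 0.40.

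The 5 regions that were higher in rbp-ko-1 all lay in promoters, and 4 of them on chromosome 2. In the whole set 69.8% of regions had a promoter annotation and 26.4% lay on chromosome 2. With only 5 higher regions, direction cannot be related to annotation or chromosome. The clearest was at LCR29 (AT2G10535), which encodes a putative defensin-like peptide (4082516 to 4082743, 50 cytosines), with 18.2% in rbp-ko-1 and 2.49% in Col-0. AT2G11010 had 12.1% in rbp-ko-1 and 4.14% in Col-0 at its promoter, while its 3 other regions were lower. AT2G06555 had 13.99% in rbp-ko-1 and 7.28% in Col-0, and a lower region 323 bp away had 6.25% in rbp-ko-1 and 12.98% in Col-0.

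At AT2G10545, annotated as a transmembrane protein, 1 region was higher and 5 were lower. The higher one (4087826 to 4087959, 45 cytosines) had 10.03% in rbp-ko-1 and 5.29% in Col-0. The lower neighbour before it had 2.35% in rbp-ko-1 and 6.23% in Col-0. The lower neighbour after it had 1.68% in rbp-ko-1 and 6.36% in Col-0. The fifth higher region, at 5S genes on chromosome 3 (13786531 to 13786641), had 12.6% in rbp-ko-1 and 7.08% in Col-0. Only 89 bp away, a lower 5S region of 10 cytosines had 4.63% in rbp-ko-1 and 17.3% in Col-0. At 3 of the 5 gains a lower region lay within 1000 bp, at 323, 102 and 89 bp. In the whole set 75.9% of regions had another region of the set within 1000 bp, and 99.3% of regions were lower. A lower region close by is therefore not particular to the gains.

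Few genes of the methylation pathways had a region in the set, which a gene away from the windows cannot enter. How many listed genes lie inside the windows was not counted, nor was a share over all genes. The counts therefore show nothing particular to these pathways. Of 30 genes of RNA-directed DNA methylation, 1 had a region of the set, and of 15 genes that maintain or remove methylation and 9 of the U1 snRNP and RBP45 family group, none had. Anywhere in the genome, 4 of the 30, 2 of the 15 and 2 of the 9 had a CHH region of the table. The gene with regions in the set was CLSY1 (AT3G42670, named CHR38 in the table), a remodeller that recruits RNA polymerase IV to its targets. Its promoter had 14.9% in rbp-ko-1 and 26.1% in Col-0 over 49 cytosines (chromosome 3, 14761907 to 14762056), and 4.11% in rbp-ko-1 and 13.8% in Col-0 over 209 cytosines in the region that follows (14762143 to 14762897). The ratios of these neighbours were 0.572 and 0.297. A CG region in an exon of the gene (14759174 to 14759251, 7 cytosines) had 59.96% in rbp-ko-1 and 76.2% in Col-0.

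The loss in CHH was seldom matched by a called region in CG or CHG. Of the 696 regions, 18 (2.59%) overlapped a CHG region by at least 1 bp, 13 (1.87%) a CG region, and 4 of these both. The 18 CHG partners, 17 of them lower, had medians of 25.05% in rbp-ko-1 and 43.3% in Col-0, a median ratio of 0.594, where the CHH regions they overlapped had 0.319. The 13 CG partners, 11 of them lower, had medians of 80.5% in rbp-ko-1 and 84.5% in Col-0, a median ratio of 0.884, where the CHH regions had 0.367. From 1 to 3 Mb the overlap was 2.59% with CHG and 2.82% with CG, and beyond 3 Mb 3.30% and 4.67%. A place without a called CG or CHG region is not shown to have had equal levels.

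At AT5G32440 on chromosome 5, described as a ubiquitin system component, a region was lower in all 3 contexts. CHH was 0.589% in rbp-ko-1 and 4.79% in Col-0 (12075680 to 12075856), CHG 18.7% in rbp-ko-1 and 43.02% in Col-0, and CG 47.1% in rbp-ko-1 and 80.8% in Col-0. At AT4G06583 the CHH ratio was 0.327, with CHG at 19.7% in rbp-ko-1 and 37.4% in Col-0, and CG at 80.5% in rbp-ko-1 and 91.1% in Col-0. The contexts parted at AT3G42130, where CHH had 2.90% in rbp-ko-1 and 7.75% in Col-0 but the overlapping CHG region was higher, at 50.1% in rbp-ko-1 and 32.9% in Col-0. The region annotated to AT3G41768, a small-subunit ribosomal RNA gene on chromosome 3, and to its neighbours was lower in all 3 contexts. CHH had 0.671% in rbp-ko-1 and 2.43% in Col-0, and CHG 13.4% in rbp-ko-1 and 21.0% in Col-0. CG had 56.98% in rbp-ko-1 and 71.6% in Col-0. Ribosomal RNA genes are repeated elsewhere in the genome, so reads at this copy are uncertain. These places were chosen after their values were seen.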

How the data were processed

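Whole-genome bisulfite libraries of rbp-ko-1 and Col-0, 3 of each, gave the table used here. The tools named per the submitters' processing notes are Bismark, MethylDackel, FastQC and Trimmomatic, and the build is TAIR10. What called the regions, with which thresholds and gene annotation, is not given in the sources used here. Each methylation level was deposited as a fraction, 1 mean per genotype, and the area statistic as a score by the authors, used only in an alternative. No p-value was computed, since the table has no values for single libraries. Alternatives changed the difference, window, length and overlap limits and which regions were kept. The deposited difference equals the rbp-ko-1 minus the Col-0 level within 0.001 points in all 9213 regions.

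Entries were collapsed to unique regions and chosen by position, length and TSS. Coordinates are the table's. Selection, overlaps (at least 1 bp) and medians were made with Python 3.11.15, pandas 2.3.3 and numpy 2.4.6, and tested on simulated data, and figures with matplotlib 3.10.9. Gene types came from the RefSeq table of assembly TAIR10.1. Named regions had at least 10 cytosines and were, on each chromosome, the 4 with the largest loss, the higher ones, the 5 with the smallest ratio, the highest Col-0 level or the greatest length, the 5 genes with the most regions, and genes of 3 lists. Members, lists and rules were chosen with earlier results of these data known.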

Additional observations from a re-analysis of the deposited data

How the results depend on the processing

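Of 93 values under 13 other settings, 56 stayed within the exact 95% binomial interval of the main share or median (or within 1.5 times the main count), and the rest are given here. These intervals cover counting over regions only. Regions that differed by at least 5 points numbered 337, with medians of 3.34% in rbp-ko-1 and 9.59% in Col-0, a difference of -6.13 points, a ratio of 0.352 and 76.9% in promoters. At 10 points 21 were left, 95.2% of them lower, with medians of 3.86% in rbp-ko-1 and 15.6% in Col-0, a difference of -11.8 points, a ratio of 0.245, 95.2% in promoters and 0% overlapping CG or CHG regions. The larger 50% by area statistic left 343 regions, with 2.66% in rbp-ko-1, 8.04% in Col-0 and -5.29 points. Within 500 kb there were 308 regions, with 7.75% in Col-0 and -5.08 points, and within 1.5 Mb 1170. Keeping the chromosome 2 copy gave 2.23% in rbp-ko-1, 7.08% in Col-0, a ratio of 0.324 and 10.1% overlapping CG or CHG regions. Keeping TSS regions gave 2.64% in rbp-ko-1, 7.89% in Col-0, -5.13 points and 75.8% in promoters. Without 5S genes, a setting chosen after seeing the data, Col-0 had 6.95%, the difference was -4.63 points and 64.8% lay in promoters. Means weighted by length were 2.81% in rbp-ko-1, 8.08% in Col-0 and -5.27 points. An overlap of at least 50% of the region left 1.01% overlapping CG or CHG regions. These shifts follow from which regions each setting keeps or how it counts them. Leaving out replicates could not be run, because the table has 1 mean per genotype. No paired analysis was possible because the table has no values per library. Depth is unknown, so its limit on each level cannot be given.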

Other observations

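Of the protein-coding genes with regions near centromeres, 24 have a symbol in the table, a set chosen after the values were seen, as were the examples given here. They had 55 regions, 54 lower and 1 higher in rbp-ko-1, beside 99.3% lower in the whole set. Their medians were 2.70% in rbp-ko-1 and 7.69% in Col-0. ARP6 (AT3G33520), a subunit of the SWR1 complex that deposits histone H2A.Z and represses flowering, had 4.03% in rbp-ko-1 and 11.3% in Col-0 at one promoter region (chromosome 3, 14096201 to 14096431). A second (14097097 to 14097303) had 5.78% in rbp-ko-1 and 13.9% in Col-0. VHA-H (AT3G42050), a subunit gene of the vacuolar proton pump, had 4.94% in rbp-ko-1 and 11.8% in Col-0 at its promoter (14233974 to 14234337), and RPL35AB (AT1G41880), a ribosomal protein gene, had 5.22% in rbp-ko-1 and 13.9% in Col-0 at the longer of its promoter regions. PLA2-ALPHA (AT2G06925), a phospholipase gene, had 9.43% in rbp-ko-1 and 16.7% in Col-0 at the first of its promoter regions, and 3.89% in rbp-ko-1 and 10.1% in Col-0 at the second.

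Levels differed widely among these genes. AHA6 (AT2G07560), a plasma membrane proton pump gene, had 0.375 to 0.978% in rbp-ko-1 and 2.41 to 4.04% in Col-0 over 3 regions in exons and introns. GLR3.3 (AT1G42540), a glutamate receptor-like channel gene, had 0.734 and 1.16% in rbp-ko-1 and 4.08 and 4.86% in Col-0 at its promoter. SRS8 (AT5G33210), of the SHI-related family, had 5 regions with 0.678 to 3.43% in rbp-ko-1 and 3.65 to 9.45% in Col-0. PRK3 (AT3G42880), a pollen receptor-like kinase gene, had 13.2% in rbp-ko-1 and 20.7% in Col-0 at its 3′ end, a ratio of 0.638 and the highest among lower regions outside 5S genes. Its relative PRK2 (AT2G07040) had 0.960 to 1.83% in rbp-ko-1 and 3.91 to 5.08% in Col-0 over 3 regions.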
